A study of Mus musculus with 42 samples.

Results

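Of the 42 RNA-seq libraries of the series, 6 were compared here, namely the 3 labelled KO for *Irf5* and the 3 labelled WT that came from bone-marrow-derived macrophages (BMDM) kept untreated for 2 h (Control 2 h). They were chosen by genotype, treatment and time as the columns of the count table name them. Mice labelled KO carried floxed alleles of *Irf5* together with LysM-Cre, a Cre recombinase placed in the lysozyme 2 locus (*Lyz2*), so that deletion is meant to take place in myeloid cells. Whether the mice labelled WT carried Cre or floxed alleles is not given in the sources used here. All were young adult male mice, and marrow cells were grown into macrophages in medium conditioned by L929 cells, a fibroblast line that secretes macrophage growth factor. The same genotypes at Control 0 h, at Control 24 h and after 2 h of palmitate, a saturated fatty acid, served as separate libraries for comparison, with 3 libraries per group. Nothing in the labels says whether replicate libraries came from separate animals or cultures, so p-values measure the spread between libraries, which may be technical.

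Interferon regulatory factor 5 (IRF5) is a transcription factor that Toll-like receptors activate through MyD88 and that switches on cytokine and interferon genes in macrophages. BMDM grow from bone marrow progenitors, and granule protein genes such as *Mpo* and *Ltf* are transcribed in immature myeloid cells and are largely shut off in mature macrophages. Lysozyme is a main secreted product of mature macrophages, and resident macrophages of tissues are known for scavenger and sialic acid receptors such as CD5L and SIGLEC1.

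The 6 libraries held 5193344 to 6725200 counts each, and 3 counts corresponded to 0.446 to 0.578 CPM, the count scaled to library size. The summed level of 12 macrophage markers, among them *Csf1r*, *Adgre1*, *Cd68* and *Mertk*, was 17638 to 18394 CPM in KO and 17827 to 18077 CPM in WT, and 0 of the 12 passed the test. Sums for other cell types are given further below. Of 11624 genes tested with edgeR's quasi-likelihood test, 57 differed between genotypes at an adjusted p under 0.05 (0.49% of genes), 27 of them higher in KO (0.232%) and 30 lower (0.258%). For each of the 57 the 3 KO libraries lay wholly above or wholly below the 3 WT libraries, which was so for 16.9% of all genes tested. The threshold in the study's legends was an unadjusted p under 0.05 by the Wald test with a log2 fold change past 1. Put on the p-values of edgeR's test, in either direction, it passed 199 genes (1.71%). The median log2 fold change over all genes tested was -0.01.

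**Figure D1:**
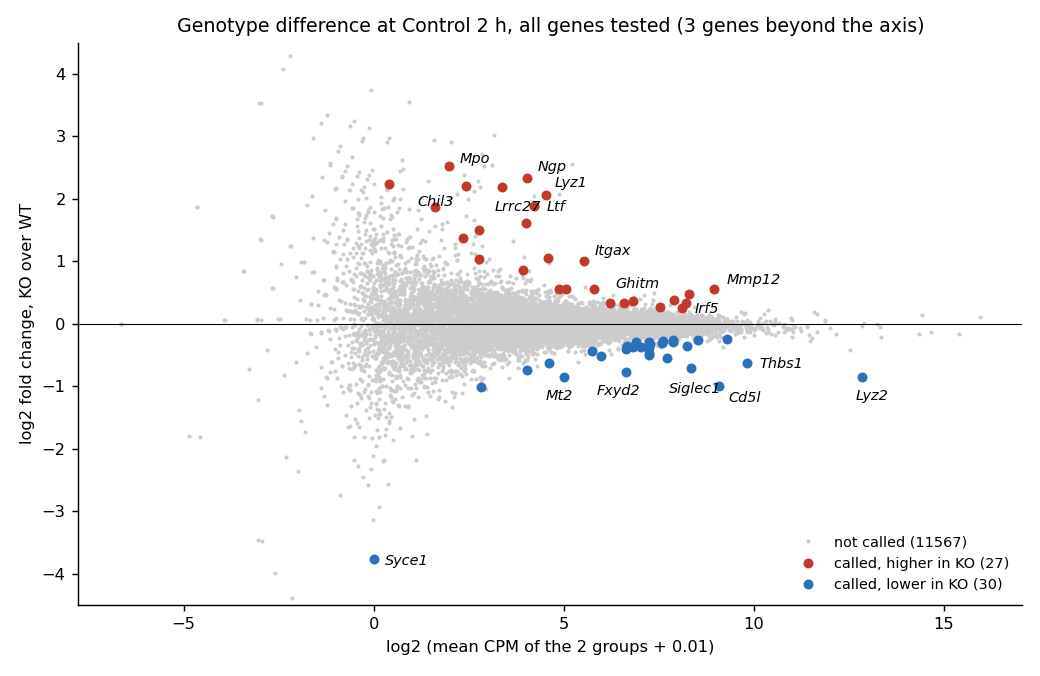
Log2 fold change (KO over WT) at Control 2 h against mean level (log2 CPM) for the 11624 genes tested, each point 1 gene. The 57 called genes are coloured by direction, 27 higher and 30 lower, with *Lyz2* the most abundant of them.

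*Irf5*, the targeted gene (chromosome 6, 29526625 to 29541871, plus strand, GRCm38), was not lower in KO. It had 291, 301 and 309 CPM in the KO libraries and 250, 245 and 259 CPM in the WT libraries. Every KO library lay above every WT library, and *Irf5* was called higher in KO (log2 fold change 0.26, SE 0.06, adjusted p = 0.0193). Leaving out any of 4 libraries removed that call, at log2 fold changes of 0.24 to 0.26. A count over the whole gene does not show whether the floxed exons were read, so it does not check the deletion. Of the other 7 interferon regulatory factor genes tested, 0 were called. *Tnpo3*, on the other strand, overlaps *Irf5*, and reads of the pair cannot be told apart if the counting ignored strand. KO and WT below therefore mean the libraries labelled so.

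The 2 mouse lysozyme genes changed in opposite directions. They lie side by side on chromosome 10, with 5475 bases between them, *Lyz2* at 117277331 to 117282321 and *Lyz1* at 117287797 to 117292868 (both minus strand, GRCm38). *Lyz2*, the lysozyme of macrophages and the locus that carries Cre in this line, had 5563, 5065 and 5293 CPM in KO against 9731, 9183 and 9792 CPM in WT. No KO library came near the WT libraries, and WT was 1.80-fold higher (log2 fold change -0.85, SE 0.09, adjusted p = 2.48e-08). *Lyz1*, known from Paneth cells of the gut, had 39.6, 36.7 and 35.5 CPM in KO against 9.68, 8.77 and 8.30 CPM in WT. It was 4.19-fold higher in KO (log2 fold change 2.07, SE 0.17, adjusted p = 6.42e-12). Even so, *Lyz1* remained a low share of lysozyme reads, and in KO its mean of 37.3 CPM stood beside 5307 CPM of *Lyz2*. Both calls held without any 1 of the 6 libraries. The genes are close copies, and 24 of 1164 windows of 100 bases in the *Lyz1* transcript (2.06%) also occur unchanged in that of *Lyz2*. How reads were divided between the pair was not tested, so the level of *Lyz1* is uncertain. The 130 bases before each start (RefSeq, GRCm38.p6, minus strand) are shown to let the pair be compared, at chr10:117292869-117292998 for *Lyz1* and chr10:117282273-117282402 for *Lyz2*. Capitals mark the 10 bases at which they differ. The other 120 (92.3%) are identical, including the 50 nearest the start. The RefSeq start of *Lyz2* lies inside the span given above for that gene, so the bases nearest it fall within that span. For *Lyz1* the window begins just outside the span.
Lyz1: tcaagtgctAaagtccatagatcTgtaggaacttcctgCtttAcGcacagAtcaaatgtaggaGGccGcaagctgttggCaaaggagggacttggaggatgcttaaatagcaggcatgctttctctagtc
Lyz2: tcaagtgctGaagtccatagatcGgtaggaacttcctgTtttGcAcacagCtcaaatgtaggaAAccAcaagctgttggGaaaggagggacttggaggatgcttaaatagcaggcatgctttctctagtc

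Of 24 granule and marker genes of neutrophils and their precursors 12 were tested, 6 of these were called and all 6 were higher in KO, against 0.232% of all genes. The median log2 fold change of the 12 tested was 1.55. The list was chosen with earlier results of these data known, so its count of calls is not independent support. For all 6 the WT mean was lower at Control 2 h than at Control 0 h, Control 24 h or palmitate 2 h. For *Ngp* it was 5.47 CPM against 13.6, 13.2 and 15.0 CPM, while KO had 27.4 CPM against 19.9, 37.0 and 32.9 CPM. The fold differences given next thus rest in part on a low WT level at this time. *Ngp*, which encodes neutrophilic granule protein, had 30.6, 32.4 and 19.2 CPM in KO against 6.39, 5.29 and 4.74 CPM in WT (5.03-fold, log2 fold change 2.33, SE 0.34, adjusted p = 3.36e-05). *Ltf*, the iron-binding lactoferrin of secondary granules, had 28.6, 43.2 and 15.6 CPM against 10.8, 7.94 and 5.19 CPM (3.70-fold, log2 fold change 1.89, SE 0.31, adjusted p = 0.000347). *Chil3*, a chitinase-like lectin, had 8.51, 10.6 and 7.46 CPM against 2.32, 2.48 and 1.04 CPM (4.59-fold, log2 fold change 2.20, SE 0.39, adjusted p = 0.00115). For all 3 genes every KO library exceeded every WT library, and the calls held without any 1 library. *S100a9*, a calcium-binding alarmin, had 24.8, 29.9 and 17.0 CPM against 11.4, 8.27 and 4.30 CPM (log2 fold change 1.61, SE 0.33, adjusted p = 0.00939). All KO libraries exceeded all WT libraries, but leaving out KO library 2 (1.42), WT library 2 (1.66) or WT library 3 (1.29) removed the call. *Mpo*, the myeloperoxidase of primary granules, had 6.77 ± 0.946 CPM in KO and 1.13 ± 0.445 CPM in WT (log2 fold change 2.52, adjusted p = 0.0351), and *Lcn2*, which sequesters bacterial siderophores, had 10.0 ± 3.13 and 3.63 ± 1.88 CPM (SD, n = 3 each; log2 fold change 1.49, adjusted p = 0.0468). *Mpo* and *Lcn2* each lost their call without 5 of the 6 libraries, *Mpo* also by DESeq2 (adjusted p = 0.055) and *Lcn2* also with RLE size factors (0.0507). Among KO libraries, library 2 was the highest and library 3 the lowest for *Ngp*, *Ltf*, *Chil3*, *S100a9* and *Lcn2*. The other 6 tested did not pass, among them *Mmp9* (-0.10) and *Cd177* (-0.07), which had negative log2 fold changes. *Csf3r*, the receptor for granulocyte growth factor and its most abundant member, had 111 ± 8.17 and 110 ± 9.18 CPM.

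The whole list, taken as a marker list for neutrophils, summed to 274 to 376 CPM in KO and 215 to 245 CPM in WT. A higher mean in KO was seen for 21 of its 24 genes. Of the 12 tested, 10 had a positive log2 fold change, beside 5628 of all 11624 genes tested. *Ly6g*, the defining surface marker of mature neutrophils, was at 0 in all 6 libraries. The number of its members called was 3 to 6 when libraries were left out in turn, the 3 being without KO library 2 or WT library 2. In bulk libraries, more cells of a type and more RNA per cell cannot be told apart. The part of granulocytes or their precursors in these differences was not tested.

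Of 20 genes of the scavenger and resident macrophage list tested, 3 were lower and 0 higher, against 0.258% of all genes. The list's median log2 fold change was -0.13, and it too was chosen with earlier results of these data known. The other 17 did not pass, and 6 of the 20 had a positive value, the highest being *Marco* (0.27, adjusted p = 0.282). *Cd5l*, a secreted scavenger protein that inhibits apoptosis of macrophages, had 281, 362 and 446 CPM in KO against 702, 742 and 728 CPM in WT. WT libraries lay close together while KO libraries spread widely, and WT was 1.99-fold higher (log2 fold change -0.995, SE 0.13, adjusted p = 2.69e-06). *Siglec1*, the sialic acid receptor also called CD169, had 278, 219 and 248 CPM against 383, 485 and 343 CPM (log2 fold change -0.70, SE 0.11, adjusted p = 0.000223). Both calls held without any 1 library. *Axl*, a receptor tyrosine kinase for the uptake of apoptotic cells, had 126 ± 1.41 CPM against 177 ± 34.3 CPM (log2 fold change -0.50, SE 0.12, adjusted p = 0.0365). Without WT library 2 the log2 fold change of *Axl* was -0.32 and not called, and the call was kept only without WT library 3. By DESeq2 its adjusted p was 0.0676. *Mertk*, the partner receptor of *Axl*, had 193 ± 14.8 and 171 ± 0.534 CPM and did not pass (log2 fold change 0.18, adjusted p = 0.43). Abundant members of the list that did not pass were *Cd36* (1906 ± 111 and 2013 ± 81.8 CPM), *Stab1* (1515 ± 41.9 and 1658 ± 53.5 CPM) and *Mrc1* (494 ± 1.96 and 499 ± 28.6 CPM), all values KO first.

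**Figure D2:**
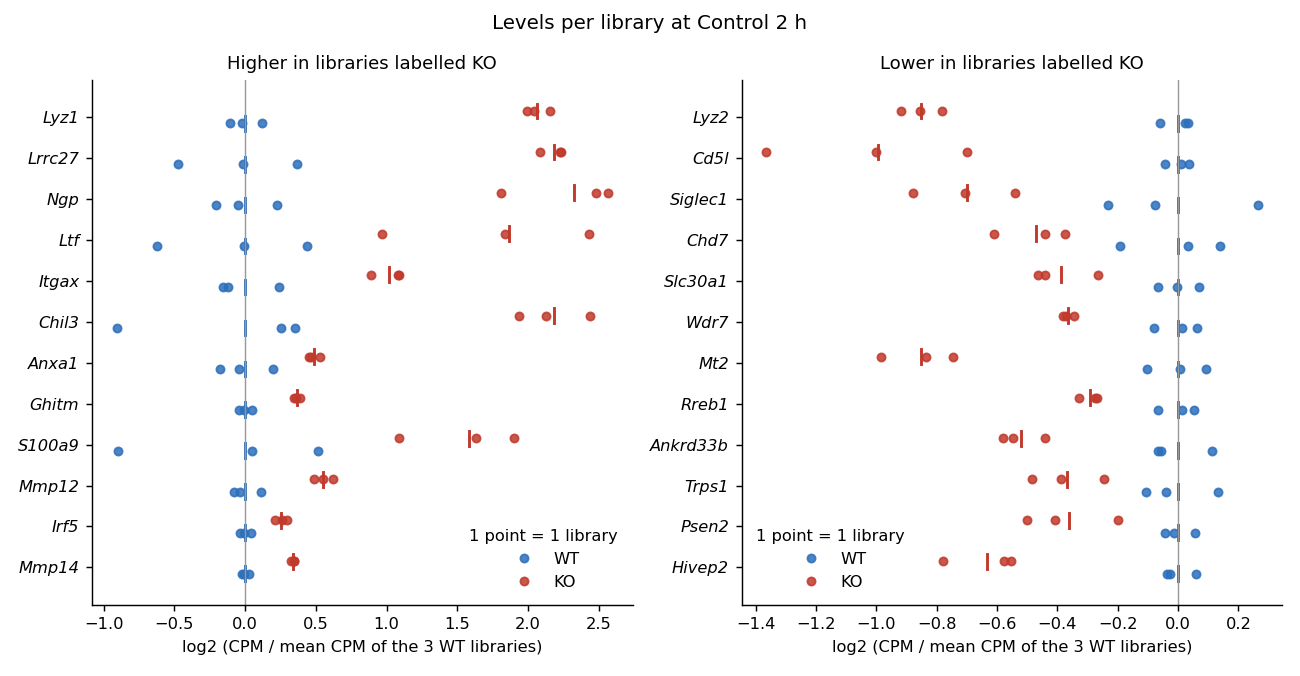
Level in each library as log2 of CPM over the WT mean, for the 12 higher and the 12 lower called genes with the smallest adjusted p and a mean of at least 1 CPM, with the bar at the group mean. KO (red) and WT (blue) libraries do not overlap for any of the 24 genes, and *Ltf* has the widest spread within KO.

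Both metallothionein genes tested, and the gene of the main zinc exporter, were lower in KO. Metallothioneins bind zinc and copper, and their genes and *Slc30a1* (which encodes ZnT1) are textbook targets of the zinc sensor MTF1. *Slc30a1* had 125, 127 and 144 CPM in KO against 172, 181 and 165 CPM in WT (log2 fold change -0.39, SE 0.08, adjusted p = 0.00645), with a gap between the groups, and leaving out KO library 1 (-0.35), KO library 2 (-0.35) or WT library 2 (-0.34) removed the call. *Mt2* had 20.8, 23.1 and 24.6 CPM against 43.9, 41.4 and 38.4 CPM (log2 fold change -0.85, SE 0.18, adjusted p = 0.0168). *Mt1* had 169 ± 14.8 CPM against 248 ± 13.3 CPM (log2 fold change -0.55, SE 0.12, adjusted p = 0.0261). *Mt1* and *Mt2* each lost their call without 4 of the 6 libraries, and by DESeq2 the adjusted p of *Mt1* was 0.0651. A list of metallothionein and zinc transporter genes, written after these values were seen, had 20 genes tested, 3 lower (0.258% of all genes were) and 0 higher, and its median was 0.01. The 3 are the genes the list was written around, so the count is no support. *Mtf1* itself had 39.2 ± 1.19 and 35.3 ± 3.48 CPM (log2 fold change 0.15, adjusted p = 0.764).

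The 250 bases before the RefSeq start of these 3 genes are printed because the metal-response element that MTF1 binds has a short known core. Capitals mark TGCACNC or TGCGCNC on either strand (N is any base), motifs that were chosen after the values were seen. *Mt1* lies at chr8:94178839-94179088, *Mt2* at chr8:94172368-94172617 and *Slc30a1* at chr1:191906531-191906780 (GRCm38.p6, plus strand).
Mt1: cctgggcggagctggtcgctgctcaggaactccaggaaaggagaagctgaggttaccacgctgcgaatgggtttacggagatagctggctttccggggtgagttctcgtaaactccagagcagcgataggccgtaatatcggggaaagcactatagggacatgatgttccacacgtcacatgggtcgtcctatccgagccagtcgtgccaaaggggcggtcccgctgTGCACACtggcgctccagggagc
Mt2: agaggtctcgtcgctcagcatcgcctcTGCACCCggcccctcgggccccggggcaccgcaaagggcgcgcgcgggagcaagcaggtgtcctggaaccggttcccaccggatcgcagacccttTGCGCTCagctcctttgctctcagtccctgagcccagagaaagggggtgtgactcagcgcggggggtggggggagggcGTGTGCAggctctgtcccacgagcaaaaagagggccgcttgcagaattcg
Slc30a1: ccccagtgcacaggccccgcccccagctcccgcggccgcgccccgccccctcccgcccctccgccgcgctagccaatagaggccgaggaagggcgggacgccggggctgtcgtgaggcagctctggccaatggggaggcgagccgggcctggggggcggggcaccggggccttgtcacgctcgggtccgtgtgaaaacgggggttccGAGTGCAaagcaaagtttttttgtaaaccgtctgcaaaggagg
The window held 1 match before *Mt1*, 3 before *Mt2* and 1 before *Slc30a1*. Such a match is common, since 34.2% of the 8900 genes tested with a promoter sequence held one, as did 9 of 20 lower genes and 3 of 22 higher genes with a sequence. The 9 include *Mt1*, *Mt2* and *Slc30a1*, the genes for which the motif was chosen, so their number is no support. The RefSeq starts may lie upstream of the starts that macrophages use, and a match of letters does not show binding.

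Several genes of the cell surface and of matrix breakdown were higher in KO, a grouping made after the values were seen. *Itgax*, the integrin subunit CD11c of dendritic cells and some macrophages, had 64.6, 64.8 and 56.5 CPM in KO against 28.1, 27.5 and 36.2 CPM in WT (2.02-fold, log2 fold change 1.01, SE 0.17, adjusted p = 0.000494). The call held without any 1 library, and *Itgax* was the only 1 of 14 integrin genes tested to be called. Markers of dendritic cells summed to 10.9 to 20.8 CPM in KO and 11.9 to 19.4 CPM in WT, with *Cd209a* and *Xcr1* at 0. *Anxa1*, which encodes the inflammation-resolving annexin A1, had 361, 377 and 357 CPM against 253, 231 and 299 CPM (log2 fold change 0.48, SE 0.10, adjusted p = 0.00781). Leaving out KO library 2 (0.46), WT library 1 (0.46) or WT library 2 (0.41) removed the call although the groups did not overlap. *Mmp12*, macrophage elastase, had 560, 613 and 584 CPM against 379, 389 and 431 CPM (log2 fold change 0.55, SE 0.11, adjusted p = 0.0103), a call that did not survive leaving out KO library 2 (0.52), WT library 1 (0.52) or WT library 2 (0.54). *Mmp14*, a membrane-bound collagenase, had 336, 331 and 336 CPM against 260, 270 and 264 CPM, with little spread in either group (log2 fold change 0.34, SE 0.07, adjusted p = 0.0226), and its call was kept only without WT library 3. In a list of matrix metalloproteinases and their inhibitors, written after these values were seen, 2 of 12 genes tested were higher (0.232% of all genes were) and 0 lower, the 2 being those the list was written around.

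Among the remaining secreted and surface genes, *Cx3cr1*, the fractalkine receptor of monocytes, had 32.2 ± 10.1 CPM in KO and 15.4 ± 4.12 CPM in WT (log2 fold change 1.06, adjusted p = 0.0261). Its annotated span overlaps *Gorasp1* and *Csrnp1* on the same strand, so its reads are uncertain. *Pdgfb*, a growth factor for mesenchymal cells, had 58.2 to 72.6 CPM against 39.9 to 48.5 CPM (log2 fold change 0.56, adjusted p = 0.0307), and the protease inhibitor gene *Serpine2* 4.79 ± 2.66 against 1.31 ± 0.541 CPM (log2 fold change 1.87, adjusted p = 0.0307). *Thbs1*, which encodes the matrix protein thrombospondin 1, went the other way, with 713 ± 77.6 CPM against 1102 ± 257 CPM (log2 fold change -0.63, adjusted p = 0.0455). The highest KO value of *Thbs1* lay just under the lowest WT value, its call was kept only without WT library 3, and it was lost by DESeq2 (adjusted p = 0.145). *Cx3cr1* lost its call in 3 of the 6 fits with 1 library left out (0.79 to 1.02), *Pdgfb* in 4 (0.48 to 0.59) and *Serpine2* in 4 (1.35 to 2.22).

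Markers of other cells were summed as well. Of the sums that follow, only those of fibroblast and of T or NK cell markers did not overlap between genotypes. The 8 fibroblast markers summed to 197, 142 and 124 CPM in the KO libraries and to 2.90, 85.2 and 9.04 CPM in the WT libraries. *Fn1*, *Col1a1*, *Col1a2* and *Col3a1* made up nearly all of it, none of them was called (log2 fold change 2.05 to 2.56, lowest adjusted p = 0.31), and *Dcn* and *Lum* were at 0 in all 6 libraries. The 6 megakaryocyte markers summed to 58.2 to 107 CPM in KO and 42.5 to 59.9 CPM in WT. Markers of B cells, T or NK cells, mast cells and erythroid cells reached at most 30.3, 41.8, 16.1 and 1.65 CPM. T or NK cell markers were 38.5 to 41.8 CPM in KO and 27.4 to 34.6 CPM in WT. Of these 10 markers only *Cd4* had enough counts to be tested, and it was not called (log2 fold change 0.33). *Cd3d*, *Cd8b1*, *Nkg7* and *Gzma* were at 0 in all 6 libraries. The part of fibroblast and megakaryocyte RNA in the differences of surface and matrix genes was not tested.

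Of 6 genes that the study singled out as candidate targets of IRF5, 2 were called here, beside 0.49% of all genes. Since the study drew on these samples, that count is not independent evidence. The study chose the 6 as differing between genotypes with lipopolysaccharide (LPS), palmitate and high-fat diet, at its unadjusted threshold. It also required IRF5 binding at or upstream of their starts in published data from LPS-treated BMDM. Untreated cells and adjusted p-values were used here, so a gene without a call is not thereby shown to be no target. *Ghitm* (chromosome 14, 37120092 to 37135272, minus strand), which encodes a protein of the inner mitochondrial membrane needed for the shape of cristae, had 128, 131 and 127 CPM in KO against 96.8, 103 and 99.3 CPM in WT. The libraries of each genotype were close together, and *Ghitm* was 1.29-fold higher in KO (log2 fold change 0.36, SE 0.07, adjusted p = 0.00853). Removing KO library 2 (0.36) or WT library 1 (0.35) ended the call. *Lrrc27* (chromosome 7, 139212988 to 139242979, plus strand), a leucine-rich repeat gene of little known function, had 17.4, 15.8 and 17.5 CPM against 3.68, 4.80 and 2.67 CPM. That was a 4.55-fold difference (log2 fold change 2.19, SE 0.23, adjusted p = 4.31e-09), held without any 1 library, although *Stk32c* overlaps it on the other strand. *Fnip2*, a partner of folliculin in nutrient sensing, had 433 ± 22.6 CPM against 508 ± 18.4 CPM and missed the threshold (log2 fold change -0.23, SE 0.06, adjusted p = 0.0584). It passed by DESeq2 (adjusted p = 0.0233) and when only the 6 libraries were fitted (0.011). *Abcg1*, a cholesterol exporter (log2 fold change -0.21, SE 0.07, adjusted p = 0.244), *Syce2*, a gene of meiotic chromosome pairing (0.59, SE 0.30, adjusted p = 0.509), and the stress transcription factor gene *Atf5* (0.07, SE 0.13, adjusted p = 0.925) did not pass.

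Few other mitochondrial genes were called. As only 0.49% of all genes were called, lists of these sizes would often hold few or none, so the low counts say little of mitochondria. Of 23 genes tested for the structure of the inner membrane, *Ghitm* was the only 1 called, and the list's median log2 fold change was -0.03. Of 76 genes of oxidative phosphorylation subunits, 0 were called, 3 had an unadjusted p under 0.05, and the median was -0.01. The most abundant, *Atp5a1*, *Atp5b*, *Sdha* and *Cox4i1*, had log2 fold changes of -0.07, -0.0048, 0.01 and -0.03. Of 21 genes of fatty acid oxidation 0 were called, with *Cpt1a* at 138 ± 7.01 and 144 ± 3.44 CPM. *Nnt*, a mitochondrial gene that is broken in the C57BL/6J substrain, had 58.7 to 64.1 CPM in KO and 43.9 to 55.6 CPM in WT (log2 fold change 0.34, adjusted p = 0.167).

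Several lower genes act in transcription and chromatin, a grouping made after the values were seen. *Chd7*, a chromatin remodeller, had 129, 115 and 135 CPM in KO against 179, 193 and 153 CPM in WT (log2 fold change -0.47, SE 0.09, adjusted p = 0.00271), and removing KO library 2 (-0.40) or WT library 2 (-0.39) ended the call. *Rreb1*, a zinc finger factor of RAS signalling, had 214, 206 and 215 CPM against 261, 248 and 269 CPM (log2 fold change -0.29, SE 0.06, adjusted p = 0.0175). *Trps1*, a GATA-type repressor, had 112, 105 and 124 CPM against 161, 143 and 137 CPM (log2 fold change -0.37, SE 0.08, adjusted p = 0.0193). *Rreb1* and *Trps1* each lost their call without 4 of the 6 libraries. *Hivep2*, a zinc finger factor that binds enhancers of immune genes, had 20.1, 20.4 and 17.5 CPM against 29.2, 29.4 and 31.3 CPM (log2 fold change -0.64, SE 0.14, adjusted p = 0.0228), with a clear gap but no call once any 1 library was left out. Smaller differences of this kind were called for the corepressor gene *Tle3* (-0.41), the TGF-beta-induced *Klf10* (-0.43), *Zfp516* (-0.31), the centromere protein gene *Cenpb* (-0.26) and the linker histone gene *Hist1h1c* (-0.36), all on the log2 scale. *Klf10* and *Cenpb* lost their call without any 1 library, *Zfp516* without 5 of the 6 and *Tle3* and *Hist1h1c* without 4. RLE size factors also ended the calls of *Klf10* (adjusted p = 0.0518), *Zfp516* (0.0551) and *Cenpb* (0.0612).

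Of the lower genes in vesicle traffic and signalling, *Wdr7*, which regulates acidification by the V-ATPase, had 98.3, 101 and 98.9 CPM in KO against 134, 121 and 129 CPM in WT (log2 fold change -0.36, SE 0.08, adjusted p = 0.0126). *Psen2*, a catalytic subunit of gamma-secretase, had 80.3, 85.8 and 99.1 CPM against 110, 113 and 118 CPM (log2 fold change -0.36, SE 0.08, adjusted p = 0.0196). The uncharacterised ankyrin repeat gene *Ankrd33b* had 51.0, 55.0 and 49.9 CPM against 80.7, 71.8 and 71.3 CPM (log2 fold change -0.52, SE 0.11, adjusted p = 0.0175). *Wdr7* lost its call without 3 of the libraries, and *Psen2* and *Ankrd33b* without 5. Differences of -0.25 to -0.33 were called for *Stxbp5*, which binds SNARE proteins, *Csk*, the kinase that restrains SRC family kinases, *Prkcb*, which encodes protein kinase C beta, the glycolysis regulator *Pfkfb3*, the ubiquitin ligase gene *Ubr4* and *Trim25*, which ubiquitinates the RNA sensor RIG-I. *Csk* and *Ubr4* lost their call without any 1 library and with RLE size factors (adjusted p = 0.0621 and 0.0631), and *Stxbp5*, *Prkcb*, *Pfkfb3* and *Trim25* without 5 of the 6. The detoxifying enzyme gene *Gstp1* (-0.74) and *Fxyd2*, a regulator of the sodium pump (-0.77), differed more, but each lost its call without 5 libraries, and *Fxyd2* was lost by DESeq2 (adjusted p = 0.14). Reads of *Cenpb*, *Prkcb* and *Ubr4* are uncertain, as each overlaps another gene on the same strand. The other genes called higher were *S100a11* (0.56), *Kif23* (0.86), *Nmral1* (1.04), *Dcbld2* (1.38), *Igsf6* (0.33), *Tmf1* (0.26) and the predicted gene *Gm49339* (0.38), and 2 identifiers without a symbol were called, ENSMUSG00000091747 higher (0.55) and ENSMUSG00000069181 lower (-1.01). *Dcbld2*, *Igsf6* and ENSMUSG00000069181 lost their call without any 1 library, *S100a11* and *Nmral1* without 5 of the 6, and *Kif23*, *Tmf1*, *Gm49339* and ENSMUSG00000091747 without 4.

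**Figure D3:**
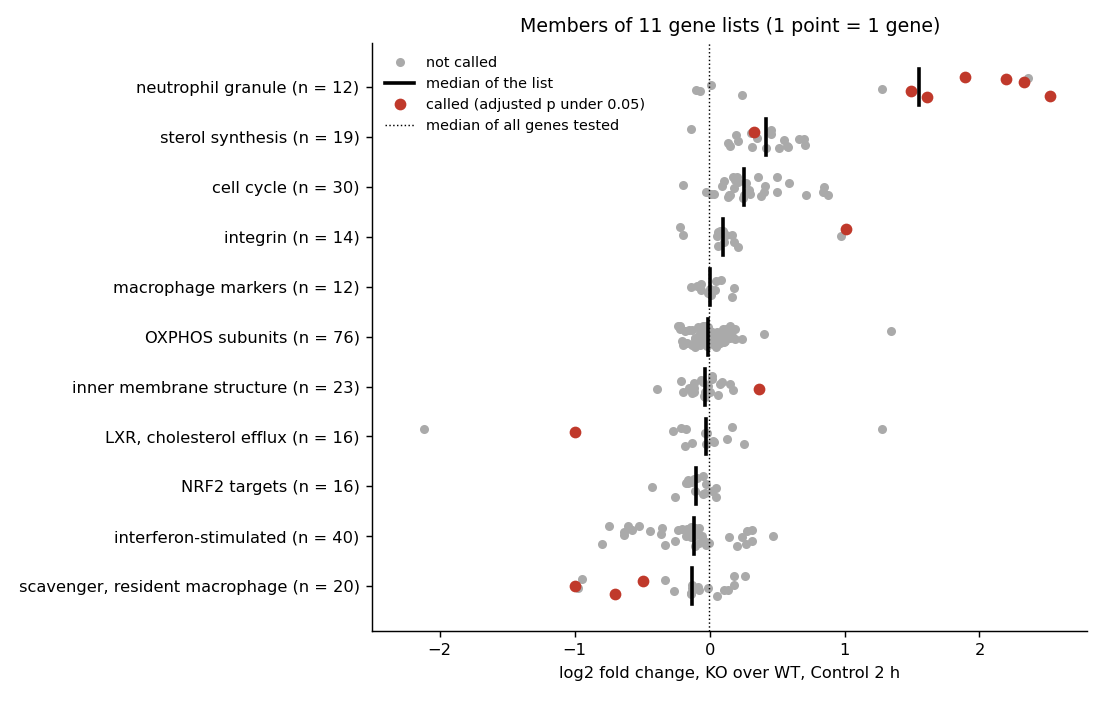
Log2 fold change (KO over WT) of the tested members of 11 gene lists at Control 2 h, each point 1 gene, with called genes in red, the black bar at the list's median and the dotted line at the median of all genes tested. The granule list has its median at 1.55, while the medians of macrophage markers, oxidative phosphorylation and inner membrane genes lie between -0.03 and 0.0048.

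Some lists leaned to 1 side with few or no calls. Of 19 sterol synthesis genes tested, 18 had a positive log2 fold change and 10 an unadjusted p under 0.05, the median was 0.42, and 1 was called. Of 30 cell cycle genes, 28 were positive with a median of 0.25, 8 had an unadjusted p under 0.05 and 0 were called. *Mki67*, the proliferation marker with the highest level on that list, had 244 ± 24.7 and 198 ± 46.6 CPM (log2 fold change 0.30, adjusted p = 0.24). *Kif23*, a kinesin of cell division outside the list, was called.

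Targets of interferon signalling, where IRF5 is known to act, gave no call. With 0.49% of all genes called, lists as short as those given here would often hold none, so a lack of calls says little. Of 40 interferon-stimulated genes, 32 had a negative log2 fold change, the median was -0.12, 4 had an unadjusted p under 0.05 and 0 were called. Abundant members were *Parp14* (202 ± 28.1 CPM in KO and 206 ± 8.61 in WT), *Slfn5* (123 ± 23.2 and 136 ± 13.9) and *Ifi204* (112 ± 12.8 and 121 ± 14.6). Of 22 inflammatory mediator genes 0 were called and 2 had an unadjusted p under 0.05. These cells were unstimulated. *Il6* had 2 counts in the 3 KO libraries together and 7 in the 3 WT libraries, too few to show a difference. *Tnf* had 76.0 ± 7.17 and 72.9 ± 3.65 CPM. Of 10 MHC class II genes and 16 NRF2 targets 0 were called, with *Cd74* at 331 ± 55.3 and 345 ± 64.4 CPM and *Hmox1* at 1426 ± 117 and 1609 ± 48.2 CPM. Of 27 immediate early genes *Klf10* alone was called. *Cd5l* was the only 1 of 16 genes on the liver X receptor and cholesterol efflux list to be called.

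IRF family factors bind sites built of GAAA repeats, and the letters of such sites were counted before the called genes. A pair of GAAA with 2 or 3 bases between them, on either strand, occurred between 250 bases before and 50 after the start in 6.53% of the 8900 genes tested with a RefSeq promoter. Of the 42 called genes with a promoter, 3 held it (7.14%), namely *Igsf6* and *Lrrc27* among the higher and *Rreb1* among the lower. A match is not a binding site, and none in this window says nothing of sites elsewhere.

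Calls at low counts rest on few reads. *Syce1*, a synaptonemal complex gene, had 2 counts in the 3 KO libraries together and 34 in the 3 WT libraries, a ratio of 15.7 in favour of WT with a 95% counting interval of 4.03 to 135. *Sardh*, which encodes a mitochondrial enzyme of sarcosine breakdown, had 37 counts in KO and 8 in WT, a ratio of 5.00 (2.29 to 12.4). Both lost their call without any 1 library and by DESeq2 (adjusted p = 0.0859 and 0.0767). The intervals cover counting error only.

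The genotype difference was then set beside 3 comparisons that share no library with it. The labels do not say whether libraries of these conditions came from the same animals or cultures, so matching signs may not be independent. At Control 24 h 14 genes were called (0.12% of genes tested) and at palmitate 2 h 17 (0.146%), while at Control 0 h 1448 were (12.5%). Of the 57 genes, 52 had the same sign at Control 24 h, 54 at palmitate 2 h and 37 at Control 0 h, beside 55.9%, 58.4% and 50.9% of all genes. Called in the same direction were 11, 10 and 11 of them, and 4 were called in the opposite direction at Control 0 h (*Siglec1*, *Chd7*, *Fxyd2* and *Pdgfb*) and 0 in the other conditions. *Lyz1*, *Lrrc27*, *Lyz2*, *Cd5l*, *Ltf* and *Ghitm* were called in all 4 comparisons. *Lyz1* had log2 fold changes of 2.11, 2.07, 2.14 and 1.94 at Control 0, 2 and 24 h and palmitate 2 h, and *Lrrc27* 1.92, 2.19, 2.29 and 2.19. *Chil3*, *S100a9*, *Itgax* and *Lcn2* were called at Control 24 h and palmitate 2 h besides, but not at Control 0 h, and *Ngp* at Control 24 h (1.52, adjusted p = 0.0107) but not at palmitate 2 h (1.13, adjusted p = 0.0969). The test of the difference between Control 2 h and either of these conditions called 0 genes of 11624, with 533 (24 h) and 486 (palmitate) at an unadjusted p under 0.05 and 0 called by DESeq2 too. That does not show the differences to be alike.

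**Figure D4:**
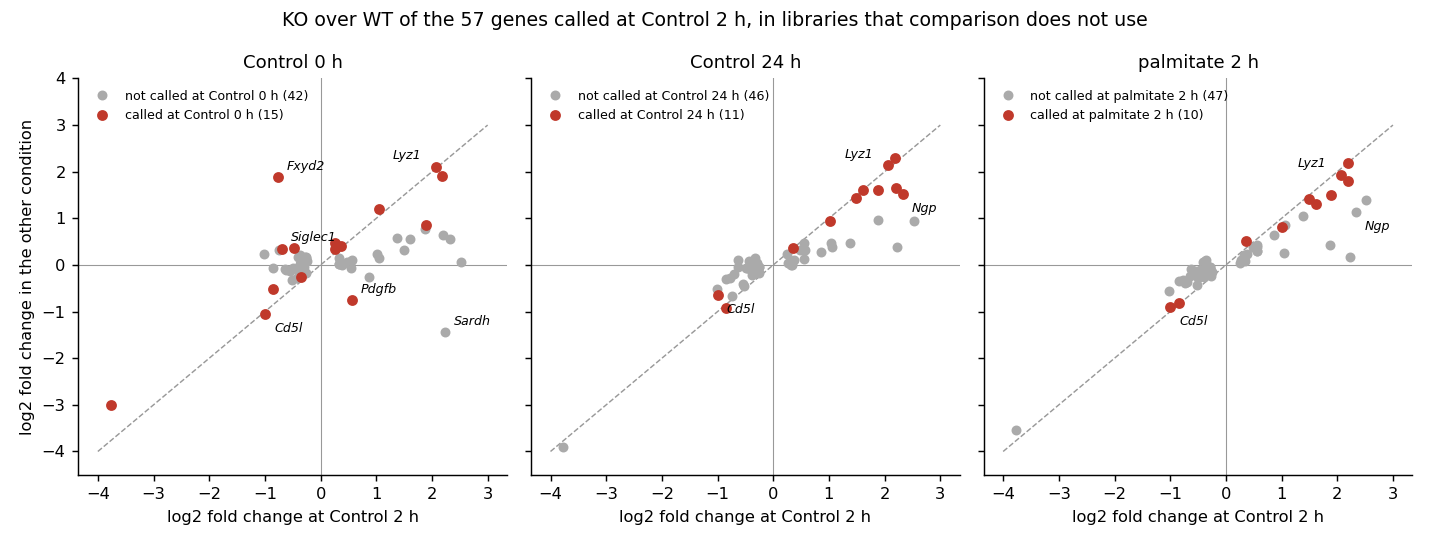
Log2 fold change (KO over WT) of the 57 genes called at Control 2 h (horizontal) against that at Control 0 h, Control 24 h and palmitate 2 h (vertical), with genes called there in red and the dashed line where both are equal. Signs match for 52 and 54 of 57 genes in the centre and right panels, and *Fxyd2*, *Siglec1* and *Pdgfb* cross to the other side at Control 0 h.

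The metallothionein genes and several regulators of transcription were called in none of the other 3 conditions, which by itself does not show that the conditions differ. *Mt1*, *Mt2* and *Slc30a1* had log2 fold changes of -0.12, -0.06 and -0.13 at Control 0 h, -0.41, -0.30 and -0.21 at Control 24 h and -0.14, -0.34 and -0.26 at palmitate 2 h, none of them called, and the difference from Control 2 h was called for none of the 3. *Rreb1*, *Trps1*, *Hivep2* and *Tle3* had log2 fold changes of -0.23 to 0.22 in the other conditions. For *Rreb1* (-0.35, adjusted p = 0.0134), *Trps1* (-0.59, adjusted p = 0.00126) and *Tle3* (-0.58, adjusted p = 0.00686) the difference between Control 2 h and Control 0 h was itself called. *Mmp14* had 0.02, 0.01 and 0.08 at Control 0 h, Control 24 h and palmitate 2 h.

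The genotype difference differed between Control 2 h and Control 0 h for 554 genes (4.77% of those tested). Of the 57, 22 were among them, 6 of the higher and 16 of the lower. The 57 were picked by their values at Control 2 h, and this difference uses the same values. That choice by itself tends to raise the count, so it is not set against the share of all genes. *Siglec1* turned, with 353 ± 24.8 CPM in KO and 277 ± 34.7 in WT at Control 0 h against 248 ± 29.1 and 404 ± 73.0 at Control 2 h, a difference of -1.05 between the log2 fold changes (SE 0.16, adjusted p = 2.65e-05). *Fxyd2* turned further, from 227 ± 66.6 against 61.2 ± 1.66 CPM to 73.2 ± 8.97 against 125 ± 8.76 CPM (-2.66). *Chd7* (-0.83) and *Pdgfb* (1.31) also changed sides, with log2 fold changes of 0.36 and -0.75 at Control 0 h. The log2 fold change of *Ngp* was 0.55 at Control 0 h and 2.33 at Control 2 h, a difference of 1.78 (adjusted p = 0.016). WT had 13.6 ± 3.56 and 5.47 ± 0.838 CPM at these times and KO 19.9 ± 3.68 and 27.4 ± 7.17 CPM. *Itgax* likewise went from 0.24 to 1.01 (difference 0.77, adjusted p = 0.0471). For *Lyz1*, *Lyz2*, *Cd5l*, *Ghitm*, *Lrrc27* and *Ltf* the difference between the times was not called.

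**Figure D5:**
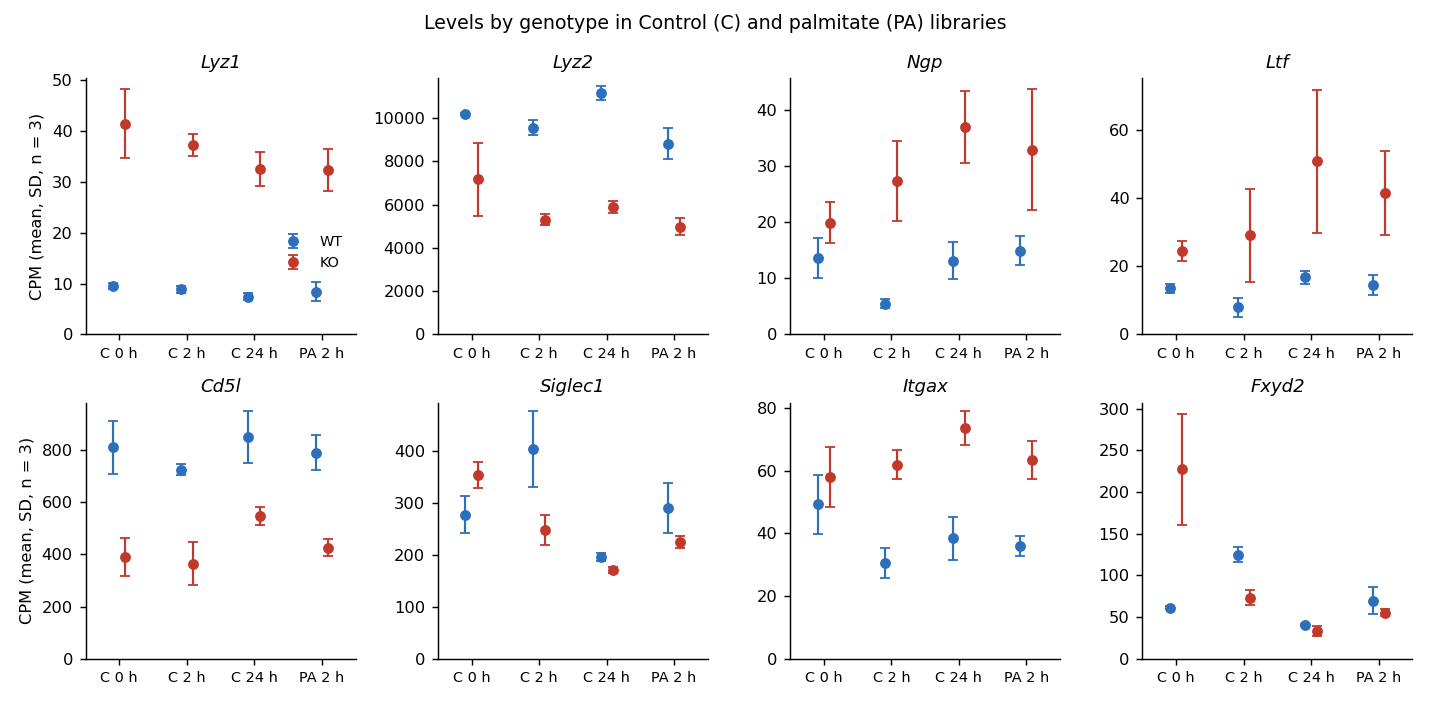
Mean level (CPM, error bars SD, n = 3 libraries) of 8 genes in KO (red) and WT (blue) at Control 0, 2 and 24 h and palmitate 2 h. *Lyz1*, *Lyz2* and *Cd5l* keep their order in all 4 conditions, while *Siglec1* and *Fxyd2* are higher in KO at Control 0 h and lower at Control 2 h.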

How the data were processed

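RNA from BMDM was made into ribodepleted stranded libraries and sequenced as paired reads. Per the labels and the methods, the authors trimmed reads with fastp 0.19.11, aligned them to the mouse genome (mm10) with STAR 2.7.3a and deposited raw read counts per gene, unnormalised. The strand setting and annotation release of the counting are not given in the sources used here. Groups came from the labels, and library numbers follow column order.

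Genes were kept by filterByExpr (11624 of 37310 genes, 99.9% of counts), scaled by TMM and tested with edgeR 4.0.16 in R 4.3.3, in a quasi-likelihood model of 14 group means over all 42 libraries, so that groups share 1 estimate of spread. P-values were adjusted by Benjamini-Hochberg over these genes, and "called" means under 0.05 after adjustment. SE is the log2 fold change divided by the root of F. CPM are TMM-scaled, and values after ± are SD over 3 libraries. DESeq2 1.42.0, RLE size factors, no filter, the 6 libraries alone and leaving out each library were the alternatives. Scripts were tested on simulated data. Members and gene lists were chosen with earlier results of these data known. The genes named were *Irf5*, the lysozymes, *Nnt*, the study's 6 candidates, called genes and, per list without a call, up to 4 of the highest level, with values per library for the 12 of smallest adjusted p in each direction. *Csf3r*, *Mertk*, *Cd36*, *Stab1*, *Mrc1*, *Marco*, *Mmp9*, *Cd177*, *Mtf1*, *Il6* and the marker genes given by name were chosen after their values were seen. Results for some genes are not reported here.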

Additional observations from a re-analysis of the deposited data

Results flagged for a closer look

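For 554 genes the genotype difference at Control 2 h differed from that at Control 0 h by the test of the difference itself. The values that follow are the log2 fold change (KO over WT) at Control 2 h minus that at Control 0 h. Among the genes higher in KO at Control 2 h it was 1.78 for *Ngp*, 0.77 for *Itgax*, 1.11 for *Kif23*, 1.31 for *Pdgfb*, 3.67 for *Sardh* and 0.61 for ENSMUSG00000091747. Among the lower genes it was -1.05 for *Siglec1*, -0.83 for *Chd7*, -0.36 for *Wdr7*, -0.35 for *Rreb1*, -0.59 for *Trps1*, -0.38 for *Psen2*, -0.51 for *Stxbp5*, -0.58 for *Tle3*, -0.43 for *Prkcb*, -0.43 for *Pfkfb3*, -1.06 for *Gstp1*, -2.66 for *Fxyd2*, -0.46 for *Trim25*, -0.38 for *Zfp516*, -0.34 for *Ubr4* and -1.25 for ENSMUSG00000069181. With *Fxyd2*, the smallest adjusted p belonged to the osmolyte transporter genes *Slc5a3* (-2.69) and *Slc6a12* (-3.15), the scavenger receptor gene *Marco* (1.27) and the p53 target *Ccng1* (0.85), none of them called at Control 2 h. At Control 0 h *Slc5a3* had 218 ± 95.2 CPM in KO and 46.6 ± 4.33 CPM in WT, and *Marco* 219.7 ± 39.1 and 439.9 ± 55.8 CPM.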

How the results depend on the processing

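Of the 57 calls, 48 were kept with RLE size factors, 53 without the low-count filter, 56 when only the 6 libraries were fitted and 50 by DESeq2, and none reversed. The number of genes called was 176 without the filter (103 higher, 73 lower) and 235 with only the libraries compared (116 higher, 119 lower). With the study's threshold put on edgeR's p-values it was 199 (134 higher, 65 lower). Leaving out each library in turn gave 11 to 69 genes (7 to 40 higher, 3 to 29 lower). The count was 16, 11 and 44 without KO library 1, 2 and 3 and 13, 13 and 69 without WT library 1, 2 and 3, and the share of calls that were higher was 53.8% to 72.7%, against 47.4% for all libraries and 58.5% without the filter. Called list members numbered 17, or 41 without the filter, 44 with only the libraries compared and 9 to 19 with 1 library left out. The difference from Control 24 h was called for 11 genes without the filter and 3 with only the libraries compared, and that from palmitate 2 h for 16 without the filter. The difference from Control 0 h was called for 347 (without WT library 2) to 545 genes. *Atf5* reversed without WT library 3 (-0.033), and its range was -0.033 to 0.18. The cause of these changes was not tested. No paired analysis was possible because the columns carry group names without replicate numbers. With 5193344 to 6725200 counts per library, genes at 0.446 to 0.578 CPM rest on 3 counts.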
